A study of Mus musculus with 2 samples.

Results

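The phagocyte NADPH oxidase (NOX2) moves electrons from NADPH across a membrane onto oxygen and so makes superoxide. Its catalytic core is a membrane heterodimer, cytochrome b558, of gp91phox (Cybb) and p22phox (Cyba). On activation, cytosolic subunits, among them p47phox (Ncf1) and p40phox (Ncf4), and a Rac GTPase join it. The voltage-gated proton channel Hv1 (Hvcn1) lets protons follow the electrons, and in the brain it is best known from microglia, the resident macrophages that are a main source of NOX2-derived oxidants. The 7 genes described here are Cybb, Cyba, Ncf1, Ncf4, Rac1, Rac2 and Hvcn1, taken by their symbols out of 53801 listed genes. They were chosen with earlier results of these data known, so the choice was not blind to the values. All 7 had at least 10 counts in both libraries, as did 13445 of all genes, which are called counted genes below.

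The data are bulk RNA-seq counts of 2 libraries of sorted brain microglia, sham 1 and sham 2, each from 1 mouse of genotype Cx3cr1(CreER/wt) on a C57BL/6 background. These mice carry a tamoxifen-inducible Cre in place of one Cx3cr1 allele, with no floxed gene to delete, and served as wild-type controls. By the design text of the series they were males of 8 to 10 weeks that had tamoxifen into the peritoneum at 75 mg/kg per day over 4 days and underwent sham surgery 14 days after the first injection. The left hemisphere was taken 3 days after surgery, and cells gated as CD11c–Ly6G–CD11b+CD45low were sorted. The treatment field of both samples reads none while their titles read sham, and the methods of the study give an age range that reaches higher and both sexes. Libraries from mice after stroke were not analysed here, so no condition was compared with another. With 2 mice of 1 group, no difference between them could be tested, and every ratio below compares these 2 libraries and has no replicate check.

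Sham 1 held 23381026 counts and sham 2 held 41142609, so at an equal CPM the counting error was smaller in sham 2. Levels are given as CPM, counts per 1000000 counts on genes, and a count of 0 allows up to 0.128 CPM in sham 1 and 0.0729 CPM in sham 2. All 10 microglia markers were counted, with a sum of 42856 CPM in sham 1 and 48687 CPM in sham 2 and 1 gene more than 2-fold lower in sham 2. Markers of cells outside the gate were present and unequal between the libraries. The 10 genes of immature neutrophils summed to 1697 and 31523 CPM, and all 10 were more than 2-fold higher in sham 2. The 9 genes of mature neutrophils summed to 2984 and 31216 CPM, with 7 more than 2-fold higher in sham 2, and none of either list was at 0. Monocyte markers summed to 283 and 620 CPM, with 2 of 6 genes more than 2-fold higher in sham 2. Border macrophage markers summed to 709 and 338 CPM, with 3 of 7 genes more than 2-fold lower in sham 2. For comparison, 25.9% of all counted genes were more than 2-fold lower and 5.74% more than 2-fold higher in sham 2. None of the 6 T and NK cell markers was counted, and their sum was 0.128 and 3.38 CPM, with Cd3e and Cd8a at 0 in both libraries and Cd3g, Ncr1 and Klrb1c at 0 in sham 1. Neutrophils and monocytes also use NOX2, Rac2 and Hv1, and the part of their RNA in the values of these genes was not tested. In bulk samples, fewer cells of a type and less RNA per cell cannot be told apart.

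Between the 2 libraries, 31.7% of the counted genes differed by more than 2-fold in CPM, 5.74% being higher and 25.9% lower in sham 2. Of the 7 genes, 2 (Cybb and Ncf4) were more than 2-fold higher and 1 (Rac1) was more than 2-fold lower. Counting differences of any size, 5 of the 7 were higher in sham 2, beside 38.5% of the counted genes. Rac1 stood farthest out, with 16.9 times more CPM in sham 1 than in sham 2. The median log2 ratio of CPM, sham 2 over sham 1, was 0.58 over the 7 genes and −0.26 over all counted genes. TMM library sizes moved the latter to −0.013 and the split of genes past 2-fold from 772 higher and 3485 lower to 1180 higher and 2646 lower. The plot of CPM by library shows each pair of values.

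**Figure D1:**
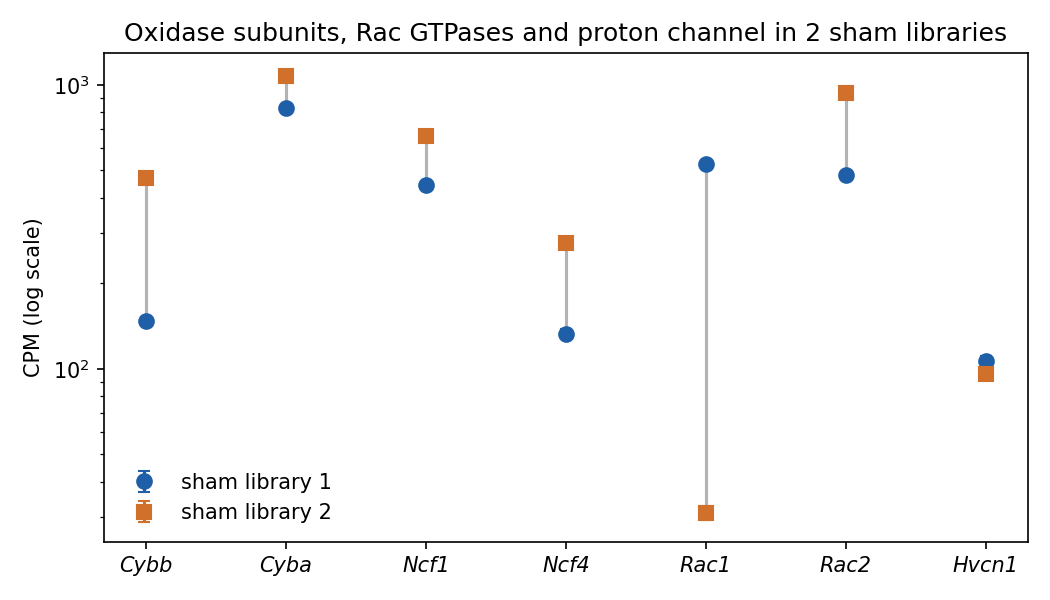
CPM (log axis) of the 7 genes in sham library 1 (circles) and sham library 2 (squares), with exact 95% Poisson intervals for counting error, most of them smaller than the symbols. Cybb, Cyba, Ncf1, Ncf4 and Rac2 sit higher in library 2, the Hvcn1 values lie close together, and Rac1 drops from 525 to 31.1 CPM.

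Both genes of the membrane heterodimer were higher in sham 2, and the p22phox gene had the higher level in both mice. Cyba (chromosome 8, minus strand, 122424776 to 122432930), whose product stabilizes gp91phox and docks p47phox, had 19315 counts in sham 1 and 44075 in sham 2, or 826 and 1071 CPM (949 ± 173, SD, n = 2 libraries). Cybb (chromosome X, minus strand, 9435252 to 9487771), which encodes the subunit that binds NADPH, FAD and heme, had 3453 and 19253 counts, or 148 CPM in sham 1 and 468 CPM in sham 2. Its log2 ratio of 1.66 (counting interval 1.61 to 1.72) was higher than that of 97.2% of the counted genes. Per kb of merged exons, Cyba stood 31.3 times above Cybb in sham 1 and 12.8 times above it in sham 2. The log2 ratio of Cyba, sham 2 over sham 1, was 0.37 (counting interval 0.35 to 0.40), so both genes were higher in sham 2, Cybb by more. Cyba was above 99.7% of the counted genes per kb in both libraries, Cybb above 85.5% in sham 1 and 95.5% in sham 2. Neither gene shares an exon base with another annotated gene, and no 75-base window of either occurs in the transcripts of another gene.

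The genes of both cytosolic subunits were higher in sham 2, with log2 ratios between those of Cyba and Cybb. Ncf1 (chromosome 5, minus strand, 134220053 to 134229625), which encodes the organizer p47phox that is phosphorylated on activation, had 443 CPM in sham 1 and 662 CPM in sham 2, a log2 ratio of 0.58 (counting interval 0.55 to 0.61). Ncf4 (chromosome 15, plus strand, 78244801 to 78262580), which encodes p40phox, the subunit that binds phosphatidylinositol 3-phosphate on phagosomes, had 133 and 278 CPM, a log2 ratio of 1.06 (1.01 to 1.12). Ncf4 was past 2-fold by a small margin. Per kb, Ncf1 was 1.84 times Ncf4 in sham 1 and 1.31 times Ncf4 in sham 2, so Ncf1 had the higher level in both mice. Ncf1 shares 11.1% of its exon bases with Gtf2ird2 on the other strand, which had 30.8 and 15.3 CPM, and the log2 ratio of their sum was 0.51.

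Of the Rac GTPases, Rac1 was lower and Rac2 higher in sham 2, and their sequences are shown because the genes are close relatives whose reads have to be told apart. Rac1 is made in nearly all cells and organizes actin, and Rac2 is largely restricted to blood cells and is the main Rac of the neutrophil oxidase. The coding sequences of both have 579 bases in GENCODE M21 (GRCm38), and 77% of the bases are the same position by position. The longest identical run at the same coding positions has 29 bases and starts at the start codon. No window of 75 bases, the length of 1 read, is the same at the same position of both. The stretch shown is the 60 bases, in steps of codons, with the most differences, at coding positions 520 to 579, which includes the stop codon. It encodes the tail that carries the lipid anchor and, in Rac1, a run of basic residues that directs the protein to membranes. Capitals mark the 28 bases that differ, and the shared run is given in lower case throughout.
Rac1: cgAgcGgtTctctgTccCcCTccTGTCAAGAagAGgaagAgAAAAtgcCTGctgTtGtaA
Rac2: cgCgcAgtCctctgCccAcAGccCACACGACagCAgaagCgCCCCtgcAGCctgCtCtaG
Shared run: atgcaggccatcaagtgtgtggtggtggg

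Rac1 (chromosome 5 of GRCm38, minus strand, 143503634 to 143528036) had 12270 counts in sham 1 and 1278 in sham 2, or 525 and 31.1 CPM. The log2 ratio, sham 2 over sham 1, was −4.08, with an exact 95% binomial interval of −4.16 to −3.995 for counting error only. Of the 13445 counted genes, 12 had a lower ratio, and 0.119% were more than 16-fold lower in sham 2. Rac2 (chromosome 15, minus strand, 78559167 to 78572783) went the other way, with 11234 and 38438 counts, or 480 and 934 CPM, a log2 ratio of 0.96 (counting interval 0.93 to 0.99). On the scale of CPM per kb of merged exons, which allows a comparison between genes, Rac2 was 57.0% of the Rac1 and Rac2 sum in sham 1 and 97.8% in sham 2, and the sum was 272 and 308 CPM per kb. With only exon bases that no other gene shares as length, a choice made after the overlaps were seen, Rac2 was 39.2% of the sum in sham 1 and 95.5% in sham 2. The order of the genes in sham 1 then turned, and so did the difference of the sum, which was 395 CPM per kb in sham 1 and 315 in sham 2. Rac3, the third Rac gene, was low, with 16.8 and 4.59 CPM.

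The 3′ end of Rac1 runs into Daglb, a diacylglycerol lipase gene on the opposite strand, and 51.4% of the Rac1 exon bases also lie in exons of another gene. Of the windows of 75 bases in the longest Rac1 transcript, 54.7% also occur in Daglb transcripts. The cDNA kit does not mark strand, and how the counting treated strand is not given in the sources used here, so reads from the shared end cannot be assigned to one of the 2 genes. Daglb had 616 CPM in sham 1 and 495 CPM in sham 2, a log2 ratio of −0.31. The sum of Rac1 and Daglb was 1140 and 526 CPM, or 2.17 times more in sham 1, a comparison added after the Rac1 values were seen. Gm42502, an unnamed gene model inside Rac1 on the other strand, had 77 and 7 counts. Since Rac1 and Daglb were both lower in sham 2, their sum had to be lower too, by a fold between theirs. It therefore cannot show how the shared reads were counted.

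Hvcn1 (chromosome 5, plus strand, 122206804 to 122242297) had the smallest difference of the 7 genes. It had 2489 counts in sham 1 and 3936 in sham 2, or 106 and 95.7 CPM (101 ± 7.63, SD, n = 2). Its log2 ratio of −0.15 (counting interval −0.23 to −0.08) was higher than that of 54.6% of the counted genes, and its sign turned to 0.10 with TMM library sizes and 0.12 with DESeq2 size factors. Hvcn1 is also used by B cells and eosinophils. Of the 6 B cell markers, 2 were counted, with a sum of 570 and 778 CPM of which Ighm, named after its values were seen, made up 517 and 720 CPM, while Pax5 was at 0 in sham 1 and had 1 count in sham 2. The 5 eosinophil markers summed to 41.6 and 94.0 CPM, and Epx was at 0 in sham 1. Hvcn1 shares 44.2% of its exon bases with Tctn1, a cilium gene on the other strand that had 9.11 and 7.83 CPM, and the sum of both had a log2 ratio of −0.16.

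Ordered by the mean level per kb of merged exons, the 7 genes ran from Cyba (913 ± 167 CPM per kb, SD, n = 2) through Rac2 (228 ± 103), Ncf1 (151 ± 42.2), Ncf4 (102 ± 50.8), Rac1 (61.8 ± 77.6) and Cybb (53.0 ± 39.0) to Hvcn1 (28.4 ± 2.14). Only Cyba was separated from its neighbour, in that the values of the 2 mice did not overlap those of the next gene, and the 5 other neighbouring pairs overlapped. Cyba, Rac2 and Ncf1 took the first 3 places in both libraries. Rac1 had rank 4 in sham 1 and rank 7 in sham 2, and Cybb rank 7 in sham 1 and rank 5 in sham 2. Where the length counted only exon bases that no other gene shares, a choice made after the overlaps were seen, Rac1 had 240 CPM per kb in sham 1, which gave it rank 2, and 14.2 in sham 2, which left it at rank 7. Hvcn1 then had 50.8 ± 3.83 CPM per kb.

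**Figure D2:**
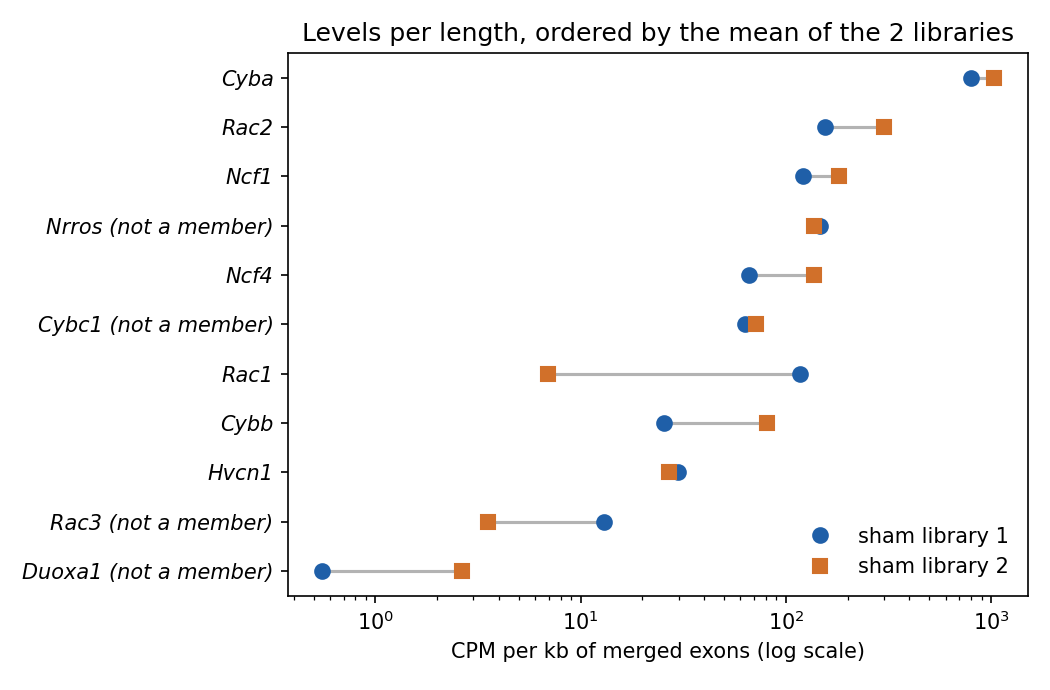
Level per kb of merged exons (CPM per kb, log axis) of the 7 genes and 4 related genes, in sham library 1 (circles) and sham library 2 (squares), ordered by the mean of both. Cyba stands apart at 795 and 1031, the Rac1 values span 117 to 6.91, and Duoxa1 and Rac3 lie at the low end.

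Each gene was set beside the protein-coding gene nearest to it in both libraries, by Euclidean distance of log2 CPM per kb among 11494 counted genes, which is a likeness of levels over only 2 libraries. The nearest were Capg for Cybb, Rnase4 for Cyba, Higd2a for Ncf1, Igsf6 for Ncf4, Ywhah for Rac2 and Tap2 for Hvcn1, at distances from 0.015 to 0.17. The nearest gene to Rac1 was Jund, at a larger distance of 0.37, with 91.6 CPM per kb in sham 1 and 7.53 in sham 2.

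**Figure D3:**
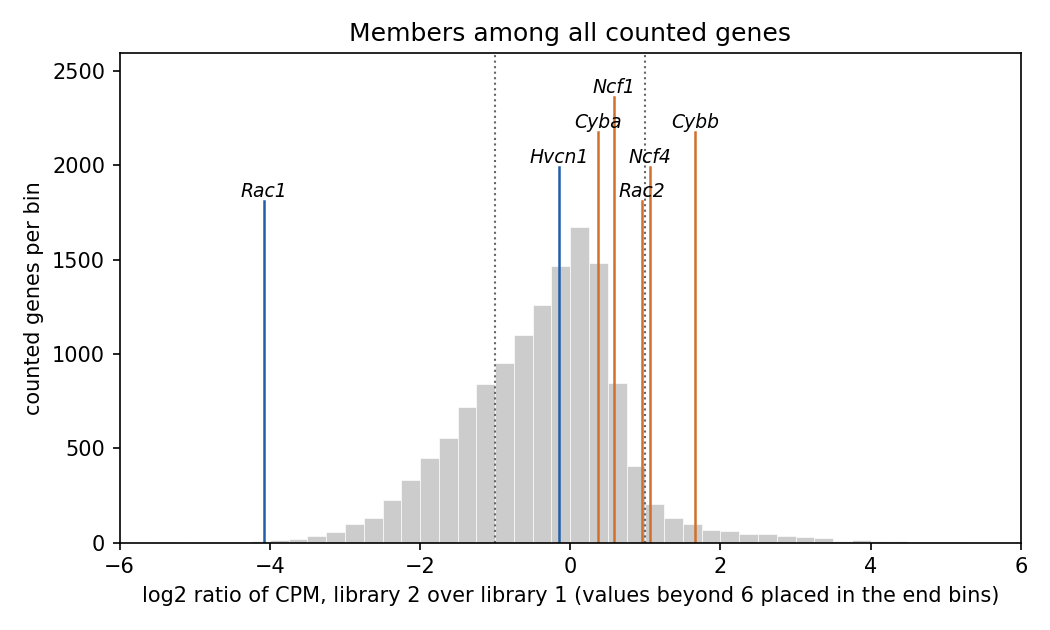
Histogram of the log2 ratio of CPM (sham library 2 over sham library 1) of the 13445 counted genes, in bins of 0.25, with lines at the values of the 7 genes and dotted lines at 2-fold. The line of Rac1 lies at −4.08, left of nearly all genes, that of Cybb at 1.66, and the other 5 lie between −0.15 and 1.06.

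Genes that control the amount of gp91phox had similar levels in both mice. Cybc1, an endoplasmic reticulum chaperone of the heterodimer also called EROS, had 265 CPM in sham 1 and 303 CPM in sham 2. Nrros, which lowers gp91phox and is needed for microglia through TGF-β1, had 615 and 575 CPM, a log2 ratio of −0.10 that turned to 0.15 with TMM library sizes. Neither gene was more than 2-fold apart between the libraries.

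Other NADPH oxidases were near or under the limit of detection. Of 9 genes of the NOX and DUOX families and their organizers, 1 was counted. Nox3, Noxa1 and Duoxa2 had no counts, which allows up to 0.128 CPM in sham 1 and 0.0729 CPM in sham 2, and Nox1, Nox4 and Duox2 had at most 1 count in a library. Noxo1 had 6 and 13 counts, and Duox1 had 6 and 1. The exception was Duoxa1, a maturation factor of the dual oxidases, with 2.18 CPM in sham 1 and 10.5 CPM in sham 2. Among the catalytic subunits other than Cybb, the highest value was 0.257 CPM, that of Duox1 in sham 1.

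Of 11 genes that switch Rac on or off or hold it inactive, 10 were counted. In CPM, 4 of them (Vav2, Vav3, Dock2 and Prex1) were more than 2-fold lower in sham 2 and 1 was more than 2-fold higher, beside 25.9% and 5.74% of all counted genes. Their median log2 ratio was −0.65, beside −0.26 for all counted genes. With TMM library sizes the medians were −0.40 and −0.013. In that scaling 3 of the regulators were more than 2-fold lower, beside 2646 of the 13445 counted genes. Prex1, a Rac exchange factor of myeloid cells, had 490 and 75.8 CPM, a log2 ratio of −2.69. Dock2, an exchange factor of blood cells, had 248 and 91.2 CPM. Vav1, an exchange factor downstream of tyrosine kinases, had 540 and 401 CPM. Arhgdib, the GDP dissociation inhibitor of blood cells that keeps Rac in the cytosol, was the one that was higher in sham 2, with 482 and 1311 CPM, a log2 ratio of 1.44.

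All 11 kinases, lipid enzymes and other signalling genes upstream of the oxidase were counted. In CPM, 6 were more than 2-fold lower in sham 2, beside 25.9% of all counted genes, and none was more than 2-fold higher, beside 5.74%. Their median log2 ratio was −1.13, beside −0.26 for all counted genes. Counting differences of any size, 10 of the 11 were lower in CPM, beside 8263 of the 13445 counted genes. With TMM library sizes or DESeq2 size factors 6 were lower, since Prkcd, Pik3c3, Pla2g4a and Rap1a changed sign. The median log2 ratio of all counted genes was then −0.013 and 0.012, so about as many of them were lower as higher. The 6 more than 2-fold lower in CPM were Prkcb, Prkca, Pak2, Syk, Pik3cg and Pik3cd. Prkcb, which encodes a protein kinase C isoform that phosphorylates p47phox, had 164 and 36.0 CPM, and Pik3cg, a phosphoinositide 3-kinase subunit gene that responds to chemoattractant receptors, had 411 and 82.8 CPM. Prkcd, another kinase of p47phox, had 471 and 463 CPM. Pik3c3, which makes the lipid that p40phox binds, had 32.7 and 28.7 CPM.

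Over all counted genes, the ratio moved with transcript length. In 10 equal bins of the longest transcript, the median log2 ratio was 0.17 in bin 3 and −1.05 in bin 10, the longest, where 52.6% of genes were more than 2-fold lower in sham 2. With the median of genes of like GC content and length subtracted, an adjustment added after the data were seen, the median was −0.09 for the Rac regulators, of which 0 were more than 2-fold lower and 1 was more than 2-fold higher. It was −0.09 for the kinases and lipid enzymes, of which 2 were more than 2-fold lower, Prkcb at −1.84 and Pik3cg at −1.33. The log2 ratio of Prex1 was then −0.71 and that of Syk −0.03, while that of Arhgdib was 1.09. The Rac1 ratio was −3.61 after this adjustment, beside 12.7% of counted genes more than 2-fold lower. Cybb, in length bin 8, had a ratio of 2.08 after it and Rac2 one of 1.14, beside 9.7% of counted genes more than 2-fold higher, while Ncf4 had 0.93, under 2-fold.

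**Figure D4:**
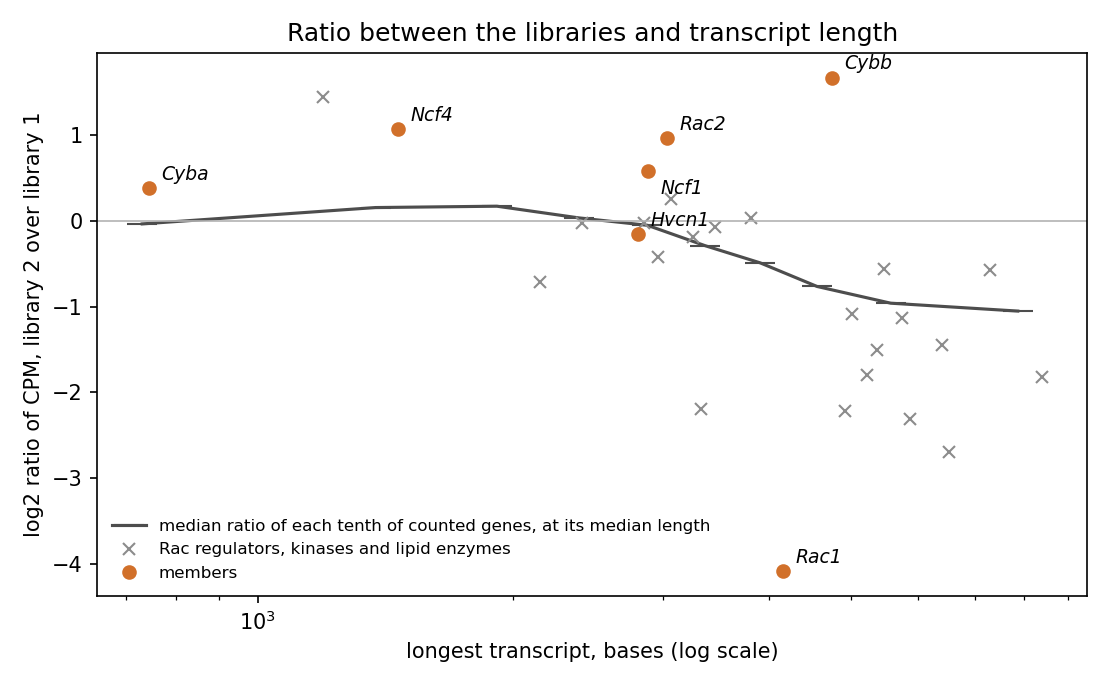
Log2 ratio of CPM (sham library 2 over sham library 1) against the length of the longest transcript (bases, log axis), for the 7 genes (filled circles), the counted Rac regulators, kinases and lipid enzymes (crosses), and the median of each of 10 length bins of counted genes (line). The line goes down to −1.05 in the longest bin, with Cybb above it at 1.66 and Rac1 far below it at −4.08.

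NADPH for the oxidase comes largely from the pentose phosphate pathway. Of 5 supply genes 4 were counted, with 1 more than 2-fold higher and 1 more than 2-fold lower in sham 2, beside 5.74% and 25.9% of all counted genes. G6pdx, the first and rate-limiting enzyme of that pathway, had 137 and 310 CPM, a log2 ratio of 1.18, while H6pd, its counterpart in the endoplasmic reticulum, had 91.9 and 11.9 CPM, a log2 ratio of −2.95. Pgd, which makes the second NADPH of the pathway, had 227 and 191 CPM.

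Chloride-proton exchangers of endosomes also balance charge and pH. Clcn5 had 34.3 CPM in sham 1 and 9.04 CPM in sham 2, a log2 ratio of −1.93, and Clcn3 had 81.3 and 52.1 CPM, a log2 ratio of −0.64. Of the 6 genes that remove superoxide or peroxide, 5 were counted and none of these was more than 2-fold apart, beside 31.7% of all counted genes. The other, Sod3, the extracellular superoxide dismutase, had 0 counts in sham 1 and 36 in sham 2, or 0.875 CPM, at least 6.82-fold higher than in sham 1 when sham 1 is set to the limit that 0 counts allow. Sod1, the cytosolic superoxide dismutase, had 39.7 and 28.7 CPM, Cat, which encodes catalase, had 127 and 137 CPM, and Gpx1, a glutathione peroxidase, had 722 and 1074 CPM.

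The counts past 2-fold depended on the scaling for Rac2. With TMM library sizes, DESeq2 size factors or totals without the neutrophil marker genes, 3 of the 7 genes were more than 2-fold higher in sham 2, the third being Rac2, with log2 ratios of 1.21, 1.23 and 1.05. Of the 13445 counted genes, 1180, 1248 and 871 were more than 2-fold higher with these scalings, in the same order, beside 772 in CPM. Rac1 was more than 2-fold lower and Cybb more than 2-fold higher under each of the 5 alternatives run. As the spread over all counted genes, edgeR gave a biological coefficient of variation of 0.477 for these 2 mice.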

How the data were processed

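Both libraries were made from total RNA of sorted cells with the SMART-Seq HT and Nextera XT kits and read as pairs of 75 bases. The authors aligned the reads to GRCm38 (HISAT2) and used HTSeq to tally them for each Ensembl identifier. The deposited values are these raw counts, with no normalization. Versions, annotation release and strand setting are not given in the sources used here. Symbols, exon lengths and transcripts came from GENCODE M21 (GRCm38), which matched 53620 of 53801 identifiers. File starts count from 0, and 1 was added.

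Each count was scaled to a library total of 1000000 (CPM). Levels are means ± SD of 2 libraries. Ratios have exact 95% binomial intervals and levels exact Poisson intervals, for counting error only, since amplified reads are not independent molecules. A gene was called past 2-fold from CPM alone, among genes that reached 10 counts in each library. The coefficient of variation is the square root of the common dispersion that edgeR 4.0.16 fitted with TMM and an intercept. DESeq2 1.42.0 gave size factors. GC content and length were adjusted for by the median of genes in the same of 10 by 10 bins, or of the same GC bin where fewer than 20 genes shared both. Scripts were tested on simulated data and ran in R 4.3.3 and in Python 3.11.15 with pandas 2.3.3, scipy 1.17.1, numpy 2.4.6 and matplotlib 3.10.9.

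The 7 genes, the 7 pathway lists and the marker lists were chosen with earlier results of these data known. Named were the 7 genes, genes of the pathway lists, marker genes at 0, genes overlapping a member and the gene nearest to each in level. Ighm was added after values were seen. The GTPase Rac3, first listed with the Rac regulators, was taken out of their counts and medians after values were seen. Some genes of these lists are not reported here. Alternatives were TMM, DESeq2, totals without mitochondrial or neutrophil genes, other count minimums, a 1.5-fold threshold, other lengths, and the GC and length adjustment, which was added after the data were seen.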

Additional observations from a re-analysis of the deposited data

How the results depend on the processing

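No paired analysis was possible because both libraries belong to 1 group. The limits are 2 mice, counting depth for the low NOX genes, and the unstated strand setting. Levels of the 7 genes moved by less than 1 SD under 4 other scalings. Leaving out one library always stays within 1 SD with 2 libraries, so it says nothing about stability. Levels per kb moved by more than 1 SD for Cyba and Hvcn1 with the longest transcript as length. The log2 ratio of Hvcn1, −0.15, reversed to 0.10 with TMM library sizes, 0.12 with DESeq2 size factors and 0.047 with the GC and length adjustment. No other of the 7 reversed. The log2 ratio of the sum of Rac1 and Rac2 per kb, 0.18, reversed to −0.32 with only unshared exon bases as length. The median log2 ratio of the 7 genes, 0.58, was 0.83 with TMM, 0.85 with DESeq2, 0.67 with totals without neutrophil markers and 0.78 with the GC and length adjustment. That of all counted genes, −0.26, was −0.013 with TMM, −0.18 without neutrophil markers, −0.24 among genes of at least 100 counts, and reversed to 0.012 with DESeq2. The genes past 2-fold, 4257, were 7302 with at least 1 count, 2713 with at least 100 counts and 6837 at 1.5-fold. They were 3826 with TMM, 3803 with DESeq2, 4051 without neutrophil markers and 3008 with the GC and length adjustment. Those higher in sham 2, 772, were 1180 with TMM, 1248 with DESeq2, 871 without neutrophil markers and 1303 with the GC and length adjustment. They were 1945 with at least 1 count, 302 with at least 100 counts and 1689 at 1.5-fold. Those lower, 3485, were 2646 with TMM, 2555 with DESeq2, 3180 without neutrophil markers and 1705 with the adjustment. They were 5357 with at least 1 count, 2411 with at least 100 counts and 5148 at 1.5-fold. The biological coefficient of variation, 0.477, was 0.512 with at least 1 count and 0.447 with at least 100 counts. The cause of the changes with the adjustment was not tested.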
